A study of Mus musculus with 12 samples.

Results

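The primitive streak and nascent mesoderm regulators are transcription factors that mark the passage of epiblast cells through the streak and into mesoderm. The list of T, Mixl1, Eomes, Gsc, Mesp1, Mesp2, Tbx6, Lhx1, Evx1 and Cdx1 held 10 genes, chosen by symbol. Of these, 9 had at least 1 probe set in the gene table of the array platform, 11 probe sets in all, and T was not analysed here. After a filter on low signals, 6 of the 9 were tested among 13066 genes (Eomes, Mesp1, Mesp2, Tbx6, Lhx1 and Evx1), and Mixl1, Gsc and Cdx1 lay under the filter.

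Mouse embryonic stem (ES) cells named D3 in the labels were the source of all RNA, in 4 groups of 3 arrays. The groups were BPA day 8 (agent labelled BPA), NP day 8 (agent labelled NP), control day 8 (no agent) and control day 0 (no agent). In all groups the cells had been kept on mouse fibroblast feeders that had been treated with MMC. The cells of the 3 day 8 groups are labelled as differentiated, by way of embryoid bodies, clumps of cells that give rise to cells of the germ layers, and those of control day 0 as ES cells. Doses are not stated, BPA and NP are not spelled out, and no genotype is given beyond the line. Nothing states that replicates came from separate cultures, and p-values then measure the spread between these samples alone. Feeder RNA can be part of any array, and day 8 was the only day measured after day 0, so expression on the days between was not measured.

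In the mouse embryo, Nodal, Wnt and Bmp signals induce the streak at the posterior side of the epiblast. Eomes and Mixl1 act in the streak and in the mesoderm and endoderm that leave it, and Gsc and Lhx1 mark its anterior end and the organizer. Evx1 and Cdx1 mark its posterior part, while Mesp1 labels nascent mesoderm that includes heart precursors, and Tbx6 and Mesp2 act in paraxial mesoderm and its segmentation. In embryoid bodies these genes are typically switched on for a short time as mesoderm forms. Some are also used outside the streak: Eomes in trophoblast and visceral endoderm, Gsc and Lhx1 in visceral endoderm, and Evx1 and Lhx1 in spinal interneurons.

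Values are log2 signals per probe set. The highest of 36 values of the bacterial control probe sets TrpnX, 3.41 on the log2 scale or a signal of 10.6, was taken as the background level, and a mean less than 1 log2 unit above it is called near background. Between 58.2% and 62.2% of all probe sets lay above this level on an array. Replicate arrays correlated at 0.938 to 0.952 over the 13066 genes tested, with 0 identical values in any pair. Both Eomes probe sets lay above background on 12 of 12 arrays. Mesp1 did so on 11, the 2 Lhx1 probe sets on 10 and 9, Mesp2 and Tbx6 on 7 each, and Evx1 on 6. Of the genes under the filter, Mixl1 lay above background on 7 arrays, Gsc on 3 and Cdx1 on 2. The filter stood at a mean over 12 arrays of 2.79, with Mixl1 just outside it at 2.75 and Tbx6 just inside it at 3.19. In bulk RNA, fewer cells of a type and less RNA per cell cannot be told apart, which holds for every value below.

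**Figure D1:**
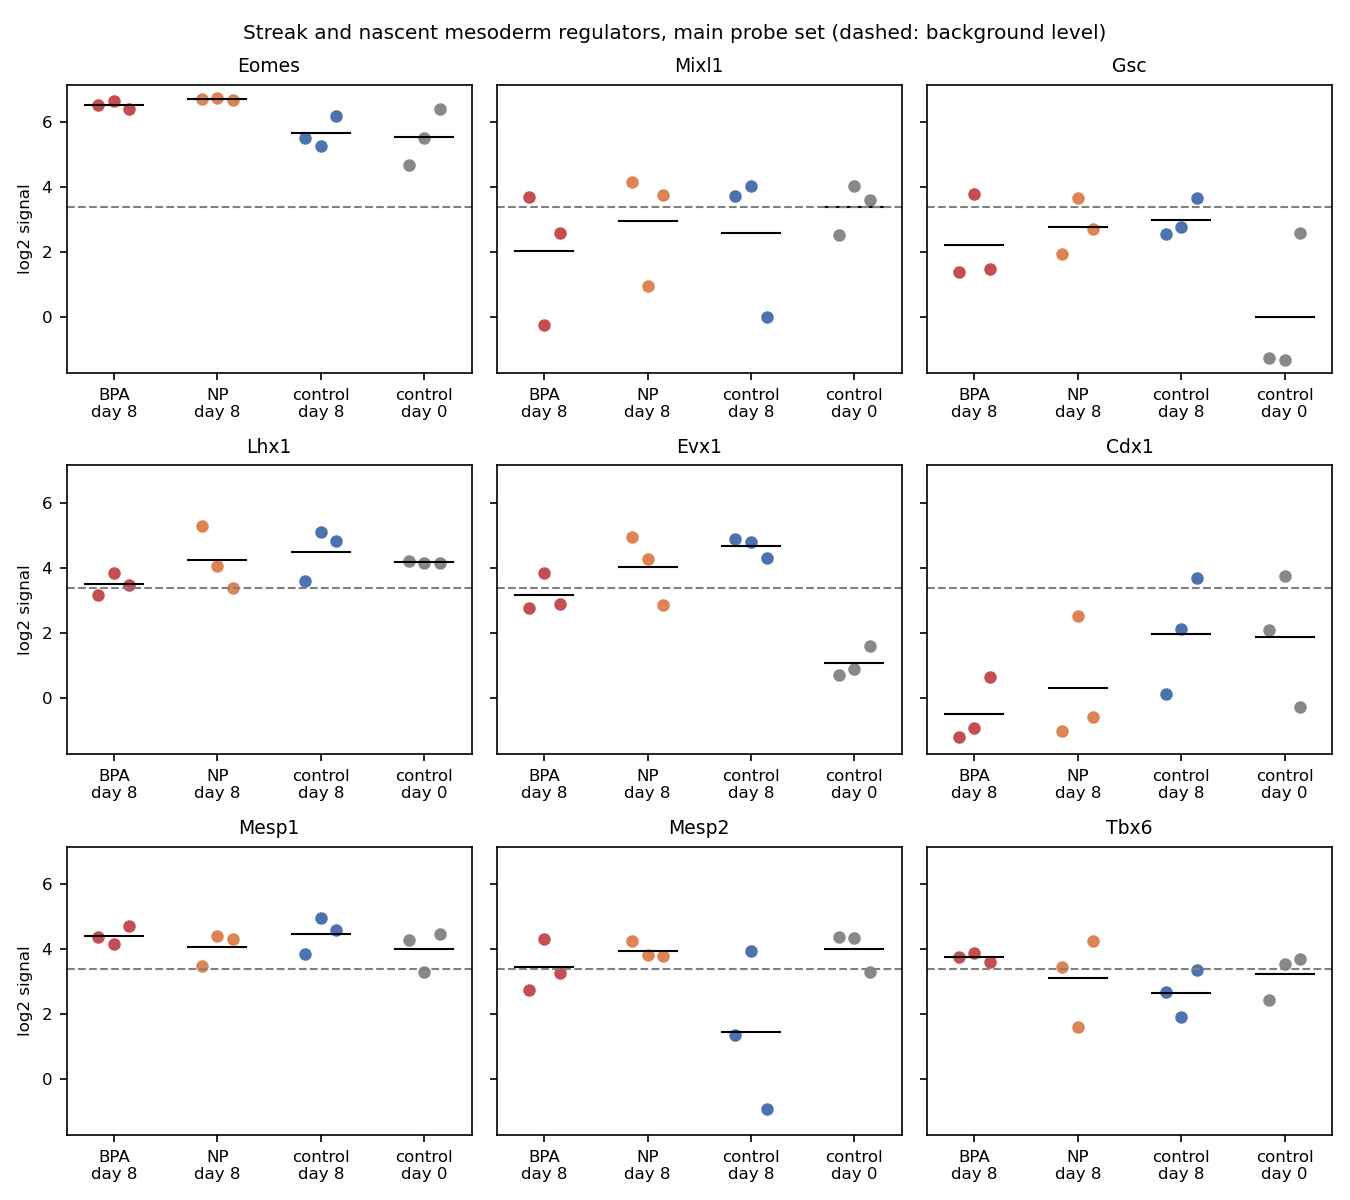
Log2 signal of the main probe set of each of 9 genes (y axis) on the 3 arrays of each group (x axis). Points are arrays, bars are group means and the dashed line is the background level of 3.41. Eomes lies well above background throughout, Evx1 is under it on all 3 control day 0 arrays, and Gsc and Cdx1 are mostly under it.

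Of the 6 tested genes, Evx1 was higher at control day 8 than at control day 0, and none of the 6 passed the test at day 8 with BPA or NP against control day 8. Against control day 0, Evx1 passed the test with BPA, and Evx1 and Eomes passed it with NP. Neither of these Evx1 calls held with values under background set to it, and with BPA both means were at or under background. The Eomes call with NP held in 4 of 12 fits that left out 1 array. A second probe set of Eomes, tested among all single probe sets, was about 3-fold higher with either agent than at control day 8, while the main Eomes probe set had a higher mean with each agent without passing the test.

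Promoters are shown for Eomes, Evx1 and Mesp2, the genes on which the values below turn. They are RefSeq sequences on GRCm38.p6, from 250 bases before to 50 after the annotated start, 5′ to 3′ on the gene's strand, in which capitals mark the motifs found. The motifs searched on both strands were CTTTGAT and CTTTGAA (TCF/LEF factors of the Wnt pathway), AGGTGTG and its shorter form AGGTGT (the core of the T-box site, bound by factors such as Eomes, Tbx6 and T) and TGTGGAT (a core of FOXH1, a partner of Nodal signalling).
Eomes chr9:118477939-118478238, plus strand: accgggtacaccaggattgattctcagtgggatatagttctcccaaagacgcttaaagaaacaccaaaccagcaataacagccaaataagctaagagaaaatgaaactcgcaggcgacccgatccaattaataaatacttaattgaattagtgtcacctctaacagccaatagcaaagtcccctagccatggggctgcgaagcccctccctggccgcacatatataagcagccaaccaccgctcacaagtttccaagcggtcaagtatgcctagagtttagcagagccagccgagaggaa
Evx1 chr6:52313248-52313547, plus strand: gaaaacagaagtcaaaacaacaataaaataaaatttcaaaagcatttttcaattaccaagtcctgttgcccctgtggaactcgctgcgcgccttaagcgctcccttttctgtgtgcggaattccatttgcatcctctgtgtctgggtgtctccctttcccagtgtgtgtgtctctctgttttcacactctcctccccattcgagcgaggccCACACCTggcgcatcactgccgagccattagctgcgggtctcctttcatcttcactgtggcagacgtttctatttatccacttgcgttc
Mesp2 chr7:79810477-79810776, plus strand: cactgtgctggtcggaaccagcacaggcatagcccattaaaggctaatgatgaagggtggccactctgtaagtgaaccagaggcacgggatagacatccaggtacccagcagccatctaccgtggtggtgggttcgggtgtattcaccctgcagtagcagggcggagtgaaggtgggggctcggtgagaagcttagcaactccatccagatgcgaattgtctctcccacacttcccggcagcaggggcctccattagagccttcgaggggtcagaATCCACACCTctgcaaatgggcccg

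The Eomes window held none of these motifs. AGGTGTG was found in 3 of the 8 members' promoters given (Evx1, Mesp1 and Mesp2) and in 5.84% of 32851 promoters of mouse genes. Each lay on the strand opposite to the gene, so that the gene's strand reads CACACCT, and the distance to the start was -39 bases in Evx1, 7 in Mesp1 and 29 in Mesp2. AGGTGT was present in 4 of 8, those 3 and T, against 13.7% of all promoters. In Mesp2 the T-box site overlaps TGTGGAT at 26 bases, a motif held by 3.38% of all promoters and by no other of the 8. The Mesp1 promoter held CTTTGAT at -31 and CTTTGAA at -73, motifs held by 3.73% and 5.14% of all promoters. A match is a run of letters, and binding was not measured.

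Eomes encodes a T-box factor needed in the mouse embryo for streak-derived endoderm, for the onset of cardiac mesoderm and for trophoblast. On its main probe set, 1426001_at, the log2 signals were 6.55, 6.66 and 6.40 in BPA day 8 arrays, 6.72, 6.76 and 6.68 in NP day 8 arrays, 5.53, 5.28 and 6.19 in control day 8 arrays and 4.68, 5.50 and 6.43 in control day 0 arrays. All 6 arrays with an agent lay above all 3 control day 8 arrays, and the third control day 0 array reached the level of the BPA arrays. Group means were 6.54 ± 0.13 with BPA, 6.72 ± 0.04 with NP, 5.67 ± 0.47 at control day 8 and 5.54 ± 0.87 at control day 0 (SD, n = 3 each). The change with BPA against control day 8 was 0.87 ± 0.38 on the log2 scale (SE), with a limma adjusted p of 0.135. With NP it was 1.05 ± 0.38, with a limma adjusted p of 0.102, so that neither passed the threshold of 0.05. Control day 8 differed from control day 0 by 0.13 ± 0.38 (adjusted p 0.800, limma), and the 95% interval ran from -0.72 to 0.99. Against control day 0, NP was 2.27-fold higher (log2 change 1.18 ± 0.38, limma adjusted p 0.0393), and the BPA difference was 1.0 ± 0.38 with an adjusted p of 0.0696. The NP result was no longer past the threshold in 8 of the 12 fits that left out 1 array, with adjusted p up to 0.110. It was past on this probe set without control day 0 replicate 3 or control day 8 replicate 2. Without control day 8 replicate 1 or 3 the fit took the other Eomes probe set, 1435172_at, which was past the threshold.

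The second Eomes probe set, 1435172_at, had a mean over 12 arrays of 6.09, against 6.12 for the main one, so that the choice between them rested on a difference of a few hundredths. It is described after its values were seen, in a fit of all 27022 single probe sets. Its log2 signals were 6.59, 6.71 and 6.84 in BPA day 8 arrays, 6.57, 6.78 and 6.76 in NP day 8 arrays, 5.11, 4.97 and 5.30 in control day 8 arrays and 5.51, 5.37 and 6.52 in control day 0 arrays. The control day 8 arrays were the lowest 3 of the 12, and the third control day 0 array again stood with the arrays given an agent. BPA day 8 was 3.01-fold above control day 8 (log2 change 1.59 ± 0.26, limma adjusted p 0.00498), and NP day 8 was 2.99-fold above it (1.58 ± 0.26, limma adjusted p 0.00907). In that fit 7.5% of probe sets were called higher with BPA and 3.91% with NP. Both calls held with each of the 12 arrays left out, with limma adjusted p from 0.000963 to 0.0217 for BPA and from 0.00167 to 0.0412 for NP. In the same fit the main probe set had adjusted p of 0.169 with BPA and 0.141 with NP. Control day 8 lay 0.68 ± 0.26 below control day 0 on 1435172_at (limma adjusted p 0.0726), where the main probe set gave 0.13 in the other direction. Against control day 0 it was 0.91 higher with BPA and 0.90 higher with NP, with limma adjusted p of 0.0332 and 0.0355, and these calls were lost in 5 and 7 of the 12 fits that left out 1 array, with adjusted p up to 0.110 and 0.117. Of all probe sets 14.2% were called higher with BPA and 13.8% with NP against control day 0. NP and BPA differed by -0.01, with a 95% interval from -0.60 to 0.58. The probe sets correlated at 0.828 over the 12 arrays, which include the differences between the 4 groups.

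Markers of 3 cell types stand beside the Eomes values: ES cells, and visceral endoderm and trophoblast, which express Eomes in the embryo. The ES cell markers were also higher with each agent than at control day 8, and were highest at control day 0. On the main Eomes probe set control day 0 had the lowest mean, 5.54 against 5.67 at control day 8. On 1435172_at its mean was 5.80, above the 5.12 of control day 8 and under the 6.71 with BPA and 6.70 with NP. All 8 pluripotency markers were higher in both comparisons of an agent with control day 8, and their summed signal was 20000 to 20900 with BPA, 16500 to 22000 with NP, 3400 to 6930 at control day 8 and 28000 to 28700 at control day 0. The 10 visceral endoderm markers summed to 11800 to 14900 with BPA, 15100 to 16100 with NP, 8230 to 15800 at control day 8 and 915 to 1000 at control day 0, where Afp, Ttr, Apoa1, Apoa4 and Sox17 were at or under background. Rhox5, with a mean of 9.69 log2, carried the control day 0 sum. In each comparison of an agent with control day 8, 1 of the 10, Rhox5, was higher and 1, Gata6, was lower. Of all genes, 12% were called higher and 10.2% lower with BPA in that comparison, and 7.9% and 6.28% with NP. The 7 trophoblast markers with a probe set summed to 6100 to 8030 with BPA, 4130 to 6770 with NP, 5950 to 7500 at control day 8 and 545 to 895 at control day 0. Krt8 carried the day 8 sums, with means of 12.3 log2 with BPA, 12.1 with NP and 12.5 at control day 8. The largest day 8 mean of the other markers was 9.62, for Tfap2c with BPA. Of the 7 markers, Tfap2c and Elf5 were higher with each agent than at control day 8. Tfap2c, a regulator of trophoblast and germ cells, was 1.67 ± 0.23 higher with BPA (limma adjusted p 0.00131) and 1.09 ± 0.23 higher with NP (0.0144), and the NP call was lost without control day 8 replicate 1 or NP replicate 2. Elf5, which acts with Eomes and Cdx2 in mouse trophoblast stem cells, averaged 4.61 ± 0.18 with BPA, 4.95 ± 0.30 with NP, 1.08 ± 2.28 at control day 8 and 1.46 ± 1.74 at control day 0 (SD, n = 3 each). With values under background set to it, Elf5 was at least 2.16-fold higher with BPA and at least 2.71-fold higher with NP than at control day 8. The test was on the signals as deposited, with values under background left in. There the fitted changes were 3.54 ± 1.08 with BPA and 3.87 ± 1.08 with NP (limma adjusted p 0.0428 and 0.0423). Leaving out any of 9 of the 12 arrays ended each Elf5 call, with adjusted p up to 0.143. The third control day 0 array, high for Eomes, had the highest trophoblast sum of its group at 895, against 545 and 556 on the other arrays. Cdx2, Elf5, Ascl2 and Tpbpa had means at or under background in that group. In the NP group the third array had the lowest sum, 4129 against 6765 and 6219. Its Eomes signal on the main probe set was 6.68, against 6.72 and 6.76. The part of these cell types in the Eomes values was not tested.

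**Figure D2:**
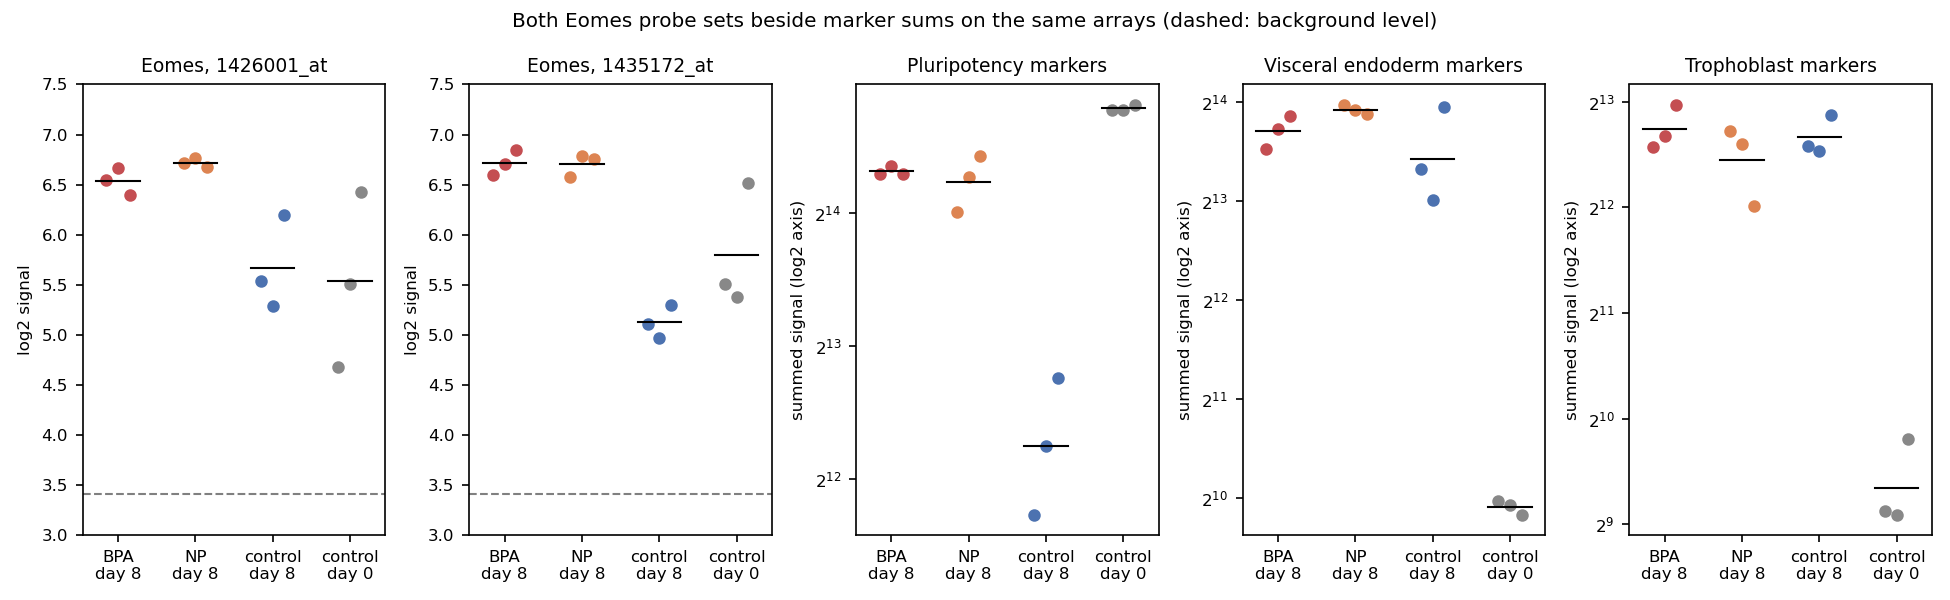
The 2 left panels show the log2 signal of each Eomes probe set, and the 3 right panels the summed signal of 8 pluripotency, 10 visceral endoderm and 7 trophoblast markers on a log2 axis, by group (x axis). Points are arrays, bars are means (of log2 values) and the dashed line is background. The arrays with BPA or NP lie above control day 8 for both Eomes probe sets and for the pluripotency markers, while the visceral endoderm and trophoblast sums with each agent overlap those at control day 8. Krt8 carries the trophoblast sums at day 8.

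Mixl1, a homeobox factor of the streak that is needed for mouse endoderm formation, gave no group mean above background. Its log2 signals were 3.71, -0.23 and 2.61 with BPA, 4.17, 0.95 and 3.75 with NP, 3.74, 4.05 and 0.01 at control day 8 and 2.53, 4.04 and 3.61 at control day 0. Every group had arrays on both sides of the background level, and all 4 groups overlapped.

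Gsc, a homeobox repressor of the organizer, was under background on all 3 control day 0 arrays, at -1.26, -1.31 and 2.61. Its signals were 1.40, 3.81 and 1.50 with BPA, 1.95, 3.66 and 2.72 with NP and 2.55, 2.79 and 3.68 at control day 8. In each day 8 group 1 array lay above background, and no group mean did. In the fit without a filter, control day 8 lay 2.99 ± 1.08 above control day 0 with a limma adjusted p of 0.0633, and no fold is given since both means were at or under background. In that fit 0 of Mixl1, Gsc and Cdx1 were past the threshold in any comparison. Of all 18193 genes in it, 32.2% were called for control day 8 against control day 0, 12.4% for BPA and 6.5% for NP against control day 8, 0.022% for NP against BPA, and 20.1% for BPA and 19.5% for NP against control day 0.

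Lhx1, a LIM homeobox factor of the organizer and the anterior streak, had 2 probe sets that differed from each other. On 1421951_at its log2 signals were 3.19, 3.86 and 3.48 in BPA day 8 arrays, 5.30, 4.06 and 3.40 in NP day 8 arrays, 3.60, 5.11 and 4.83 in control day 8 arrays and 4.23, 4.16 and 4.16 in control day 0 arrays. The BPA group had the lowest mean, 3.51 ± 0.34, against 4.26 ± 0.96 with NP, 4.51 ± 0.80 at control day 8 and 4.18 ± 0.04 at control day 0 (SD, n = 3 each). The BPA arrays overlapped the control day 8 arrays, the change was -1.0 ± 0.49 (limma adjusted p 0.176), and all group means but that of control day 8 were near background. On 1450428_at the day 8 means were 2.45 ± 2.59 with BPA, 4.59 ± 0.58 with NP and 4.84 ± 0.66 in controls, against 2.13 ± 2.24 at control day 0. Single arrays set the spread. The third BPA array stood at -0.53, and the third control day 0 array at 4.59 where the other two had 0.23 and 1.56. The probe sets correlated at 0.277 over 12 arrays, and neither passed the test in any of the 6 comparisons.

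Evx1, a homeobox factor graded along the streak and highest at its posterior end, had the clearest difference with time. Its log2 signals were 2.77, 3.86 and 2.89 in BPA day 8 arrays, 4.96, 4.30 and 2.88 in NP day 8 arrays, 4.92, 4.81 and 4.32 in control day 8 arrays and 0.72, 0.90 and 1.60 in control day 0 arrays. All day 8 arrays exceeded all control day 0 arrays, which were all under background. Group means were 3.17 ± 0.60 with BPA, 4.05 ± 1.07 with NP, 4.68 ± 0.32 at control day 8 and 1.07 ± 0.46 at control day 0 (SD, n = 3 each). Control day 8 was at least 2.42-fold above control day 0, counted from the background level, and the fitted change of 3.61 ± 0.51 had a limma adjusted p of 0.00033. This call held with each of the 12 arrays left out, with adjusted p up to 0.00196.
With NP, Evx1 was at least 1.56-fold above control day 0 (fitted change 2.97 ± 0.51, limma adjusted p 0.00214), although the adjusted p was 0.0741 when values under background were set to it. With BPA the fitted change against control day 0 was 2.10 ± 0.51 (limma adjusted p 0.0112), but both means were at or under background, no fold is given, and the adjusted p was 0.752 with values set to background. Against control day 8, the BPA arrays were all lower, with a change of -1.51 ± 0.51 (limma adjusted p 0.0601), and the NP arrays overlapped, with a change of -0.63 ± 0.51 (0.458). The BPA difference was past the threshold in 3 of 12 fits with 1 array left out (without BPA replicate 2, NP replicate 1 or NP replicate 3), with adjusted p from 0.0188 to 0.165. It was also past it in 3 of 9 alternative settings, with limma adjusted p from 0.0264 to 0.151 over the 9. These 3 were a pseudocount, values under background set to it, and only the 2 groups compared. The 6 neural markers, looked at because Evx1 and Lhx1 mark interneurons, summed to 138 to 206 with BPA, 197 to 223 with NP, 118 to 216 at control day 8 and 303 to 386 at control day 0, with Neurog2 at or under background in all groups. The part of neural cells in the Evx1 values was not tested. The Evx1 promoter, printed above, is the one with the T-box site at -39.

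Cdx1, a caudal-type homeobox factor of the posterior streak and later of the gut, was above background on 2 of 12 arrays, control day 8 replicate 3 at 3.69 and control day 0 replicate 2 at 3.76. Its other signals ran from -1.19 to 2.54, and all 6 arrays with an agent lay under background. The 6 gut markers summed to 1250 to 1620 with BPA, 859 to 1370 with NP, 1010 to 1600 at control day 8 and 83.5 to 139 at control day 0, with Cdh17 at or under background in all groups. Krt19 carried the day 8 sums, with means of 9.93 log2 with BPA, 9.64 with NP and 9.65 at control day 8. Cdx2, a relative of Cdx1 and one of these markers, by its own probe set, averaged 5.27 ± 0.89 with BPA, 5.26 ± 0.33 with NP, 6.01 ± 0.39 at control day 8 and 2.44 ± 2.30 at control day 0 (SD, n = 3 each).

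Mesp1, a basic helix-loop-helix factor of nascent mesoderm and heart precursors, showed little spread between groups. Its log2 signals were 4.39, 4.17 and 4.72 in BPA day 8 arrays, 3.48, 4.41 and 4.33 in NP day 8 arrays, 3.86, 4.95 and 4.59 in control day 8 arrays and 4.28, 3.29 and 4.49 in control day 0 arrays. All groups overlapped, and the largest change among the 6 comparisons was 0.45 ± 0.39, for control day 8 against control day 0 (limma adjusted p 0.378). The 95% interval for BPA against control day 8 was -0.92 to 0.83, and for NP against control day 8 it was -1.27 to 0.48.

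Mesp2, the neighbour of Mesp1 on chromosome 7 and a factor of somite boundary formation, varied widely at control day 8. Its log2 signals were 2.75, 4.33 and 3.28 in BPA day 8 arrays, 4.24, 3.82 and 3.79 in NP day 8 arrays, 1.36, 3.96 and -0.92 in control day 8 arrays and 4.38, 4.35 and 3.30 in control day 0 arrays. The second control day 8 array stood among those of the other groups, and the other two were under background. The change at control day 8 against control day 0 was -2.54 ± 0.99 (limma adjusted p 0.0587). Against control day 8 it was 1.99 ± 0.99 with BPA (0.187) and 2.48 ± 0.99 with NP (0.133). Without control day 8 replicate 2, these became -3.79, 3.23 and 3.73, with limma adjusted p of 0.00262, 0.0168 and 0.0159. With values under background set to it, they were -0.45, 0.12 and 0.36 (limma adjusted p 0.264, 0.819 and 0.491). The mean of control day 8 lay under background, and the changes with values set to it stand here in place of a fold.

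Tbx6, a T-box factor that directs cells to paraxial mesoderm and away from neural fate, was near background with BPA. Its means in the other groups were at or under background. Its log2 signals were 3.77, 3.90 and 3.60 in BPA day 8 arrays, 3.44, 1.62 and 4.26 in NP day 8 arrays, 2.68, 1.91 and 3.36 in control day 8 arrays and 2.46, 3.55 and 3.70 in control day 0 arrays. The 3 BPA arrays lay just above background and the 3 control day 8 arrays under it, without overlap. The change was 1.11 ± 0.63 (limma adjusted p 0.247), and with NP it was 0.46 ± 0.63 (0.681).

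**Figure D3:**
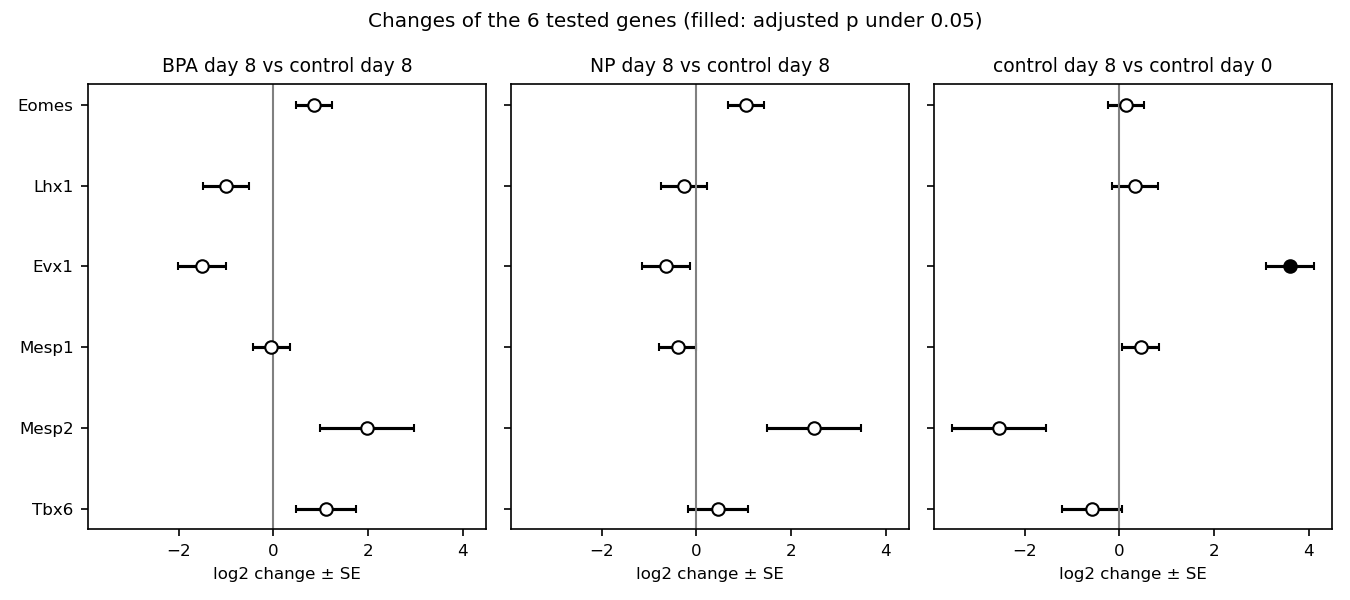
Log2 change (x axis) with its SE for the 6 tested genes, in BPA day 8 against control day 8, NP day 8 against control day 8 and control day 8 against control day 0. Filled points have a limma adjusted p under 0.05. Evx1 in control day 8 against control day 0 is the single filled point, and the changes of Eomes, Mesp2 and Tbx6 lie right of 0 with either agent.

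The counts over the 6 tested genes stand beside those of all genes. At control day 8 against control day 0, 1 of 6 was higher and 0 lower, where 48.7% of all genes were called, and 2 of 6 had an unadjusted p under 0.05 (54.3% of all genes). Arrays of 1 of 6, Evx1, did not overlap (56.8% of all genes). With BPA against control day 8, 0 of 6 were called by limma, where 22.2% of all genes were called, and 2 of 6 had an unadjusted p under 0.05 (35.6%). In the same comparison 3 of 6 did not overlap (Eomes, Evx1 and Tbx6), against 41.6% of all genes. With NP against control day 8, 0 of 6 were called by limma (14.2% of all genes), 2 of 6 had an unadjusted p under 0.05 (28.6%) and 1 of 6, Eomes, did not overlap (34.8%). Against control day 0, 1 of 6 was called with BPA (33.6% of all genes, 21.7% higher) and 2 of 6 with NP (32.1%, 20.2% higher), all of them higher. With each agent 2 of 6 had an unadjusted p under 0.05 against control day 0, where 44.1% of all genes did with BPA and 42.4% with NP, and 2 of 6 did not overlap, where 49.4% and 47.6% did. The median change of the 6 was 0.41 with BPA and 0.10 with NP against control day 8, where the medians of all genes were 0.04 and 0.01. For control day 8 against control day 0 it was 0.23, against 0.12 for all genes. The comparisons with control day 8 share its 3 arrays, as those with control day 0 share theirs.

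NP day 8 and BPA day 8 were compared directly, at doses that the labels do not give. Of the 6 genes 0 were called by limma and 0 had an unadjusted p under 0.05, where 0.00765% and 8.38% of all genes did. The arrays of 1 of 6, Eomes on its main probe set, did not overlap, against 17% of all genes. The difference, NP minus BPA, was 0.18 for Eomes (95% interval -0.67 to 1.04) and 0.88 for Evx1 (-0.26 to 2.01). It was 0.75 for Lhx1 (-0.35 to 1.84), 0.50 for Mesp2, -0.35 for Mesp1 and -0.65 for Tbx6. The intervals reach past 1 log2 unit for Eomes, Evx1 and Lhx1, and so do those of Mesp2, Mesp1 and Tbx6, which are not printed. Differences of that size between the agents were thus within the intervals.

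The signals that induce the streak were described by 29 listed genes, 24 of them tested. Of all genes, 28.3% were called higher and 20.5% lower at control day 8 against control day 0, 12% and 10.2% with BPA against control day 8, and 7.9% and 6.28% with NP against control day 8. Of the 24, 11 were higher and 7 lower at control day 8 against control day 0, with a median change of 0.50. Bmp2 (5.17 ± 0.37, limma adjusted p 1e-05) and Bmp4 (2.46 ± 0.19, 1.37e-05), both Bmp ligands, had the largest rises, and Tdgf1 and Gdf3, a coreceptor and a ligand of the Nodal pathway, fell by 3.95 ± 0.31 and 3.93 ± 0.37. With BPA against control day 8, 5 were higher and 7 lower (median -0.39), and with NP 6 were higher and 5 lower (median -0.10). The NP count of 11 ran from 6 to 12 when single arrays were left out, and was 6 without control day 8 replicate 1 or 2 or NP replicate 2 or 3. Tdgf1 was higher by 3.03 ± 0.31 with BPA (limma adjusted p 0.000423) and 3.25 ± 0.31 with NP (0.000638), and Fgf4, a growth factor of ES cells and epiblast, by 3.24 ± 0.39 (0.000754) and 2.86 ± 0.39 (0.0023). Wnt5a, a Wnt ligand of the posterior embryo, changed by -2.50 ± 0.47 with BPA (0.00567) and -2.03 ± 0.47 with NP (0.0219), and Bmp2 by -2.22 ± 0.37 with BPA (0.00315). Bmp4 changed by -1.49 ± 0.19 with NP (0.00162). The Wnt5a call with NP was lost without control day 8 replicate 1 or 2 or NP replicate 2 or 3, with adjusted p up to 0.081. Nodal itself averaged 8.10 ± 0.18 with BPA, 8.22 ± 0.44 with NP, 6.37 ± 0.56 at control day 8 and 8.65 ± 0.27 at control day 0 (SD, n = 3 each). It was chosen here as the inducer of Eomes in the embryo, after its values were seen, and was higher than at control day 8 by 1.74 ± 0.30 with BPA (limma adjusted p 0.00387) and 1.85 ± 0.30 with NP (0.00496). With the mean of its probe sets these adjusted p were 0.0862 and 0.058. Wnt3, Wnt3a and Wnt8a, the Wnt ligands of the streak, lay under the filter. Tdgf1 is also one of the 8 pluripotency markers, whose sums are given above.

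Of 27 other streak, node and organizer genes, 19 were tested. At control day 8 against control day 0, 7 were higher and 4 lower (median 0.75), led by Amot (4.38 ± 0.22) and the Wnt inhibitor Dkk1 (4.22 ± 0.37) on one side and the Nodal inhibitors Lefty1 (-4.40 ± 0.27) and Lefty2 (-4.33 ± 0.30) on the other. With BPA against control day 8, 4 were higher and 4 lower (median -0.22), and with NP 5 were higher and 1 lower (median 0.13). Leaving out single arrays gave 3 to 9 genes with NP in place of 6, with 3 left without control day 8 replicate 1 or NP replicate 2 or 3. Lefty1 was higher by 2.13 ± 0.27 with BPA (limma adjusted p 0.000822) and 2.75 ± 0.27 with NP (0.000638), and Lefty2 by 2.49 ± 0.30 (0.000778) and 2.68 ± 0.30 (0.00109). Dkk1 changed by -1.71 ± 0.37 with BPA (0.00996) and -1.35 ± 0.37 with NP (0.0391), the second of which was lost without any 1 of 7 arrays (up to 0.132). The single fall with NP was thus that of Dkk1. Shh, a signal of node and notochord and of gut endoderm, changed by -3.24 ± 0.77 with BPA (0.0158), a call lost without control day 8 replicate 1 or 2 or BPA replicate 2 or 3 (up to 0.0588). Evx2, the relative of Evx1, averaged 3.65 ± 0.83 with BPA, 4.27 ± 0.42 with NP, 2.98 ± 1.34 at control day 8 and 4.08 ± 0.52 at control day 0 (SD, n = 3 each).

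Presomitic and paraxial mesoderm was represented by 24 genes, 16 of them tested. At control day 8 against control day 0, 7 were higher and 3 lower (median 2.18). Aplnr, the apelin receptor of early mesoderm, was at least 27.7-fold higher and Cyp26a1, which breaks down retinoic acid, at least 21.9-fold higher, with limma adjusted p of 0.000286 and 5.39e-05. Tcf15, a factor of somites that is also present in ES cells, changed by -3.50 ± 0.26, and Pcdh19 by -1.79 ± 0.26. With BPA against control day 8, 1 was higher (Tcf15, 2.10 ± 0.26, limma adjusted p 0.000824) and 6 were lower, and with NP 1 was higher (Tcf15, 2.55 ± 0.26, 0.000781) and 3 were lower. The medians were -0.73 with BPA and -0.74 with NP. Foxc2, a forkhead factor of paraxial mesoderm, was at least 6.76-fold lower with BPA (0.0137, and 0.051 without control day 8 replicate 1). Aplnr changed by -3.18 ± 0.73 with BPA (0.013) and -3.19 ± 0.73 with NP (0.0203), and the Wnt enhancer Rspo3 by -2.34 ± 0.55 with NP (0.0229). The NP calls of Aplnr and Rspo3 were lost without control day 8 replicate 1 or 2 or NP replicate 2 or 3 (up to 0.0735 and 0.0832). The count with BPA, 7, went down to 3 without control day 8 replicate 1 and to 4 without control day 8 replicate 2 or BPA replicate 3. The count with NP, 4, went down to 1 without control day 8 replicate 1 or 2 or NP replicate 2, and to 2 without NP replicate 3. Msgn1, a target of Tbx6 in mouse presomitic mesoderm, had no group mean above background, and its means ran from 1.27 with BPA to 2.35 with NP.

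Lateral, cardiac and extraembryonic mesoderm was represented by 24 genes, 23 of them tested. At control day 8 against control day 0, 17 were higher and 1, Tbx3, was lower (-0.74 ± 0.16), with a median change of 3.32 where that of all genes was 0.12. Hand2, a factor of heart and limb mesoderm, was at least 86.5-fold higher (limma adjusted p 4.64e-05) and Tbx20, a cardiac T-box factor, at least 38.6-fold higher (0.000234). With BPA against control day 8, 0 were higher and 14 lower, with a median of -2.35, and with NP 0 were higher and 13 lower, with a median of -1.80. The count with NP ran from 6 to 15 when single arrays were left out. It was 6 without control day 8 replicate 1, 7 without control day 8 replicate 2 or NP replicate 3, and 8 without control day 8 replicate 3 or NP replicate 2. Hand2 changed by -4.72 ± 0.73 with BPA (0.00229) and -4.19 ± 0.73 with NP (0.00682), the cardiac myosin light chain Myl7 by -4.38 ± 0.88 with BPA (0.0073), and Wnt2, a ligand of early cardiac and vascular mesoderm, was at least 8.51-fold lower with NP (0.00324). With the mean of its probe sets the NP call of Hand2 had an adjusted p of 0.0548. The median changes of the 6 tested streak regulators were 0.41 and 0.10 in the same comparisons, with single genes on both sides of 0. All of these regulators but Eomes had some group means near, at or under background. Their medians therefore cannot show whether the regulators changed less than the mesoderm genes. Mesp1, which precedes cardiac mesoderm in the mouse embryo, lay within its replicate spread. The feeder fibroblast markers summed to 539 to 732 with BPA, 514 to 701 with NP, 3680 to 5460 at control day 8 and 7310 to 9290 at control day 0. With BPA 5 of these 8 markers were lower than at control day 8 and with NP 4 of 8 were, where 10.2% and 6.28% of all genes were called lower. The control day 8 sum was carried by the collagens Col3a1 and Col1a2, whose means there were 11.4 and 10.7 log2. S100a4 was at or under background in all 3 day 8 groups, and Thy1 was with BPA and at control day 8. Mgp averaged 5.38 ± 0.13 with BPA, 5.18 ± 1.22 with NP and 4.12 ± 0.22 at control day 8 (SD, n = 3 each), without passing the test. The part of feeder cells in the mesoderm values was not tested.

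In NP against BPA, 0 genes of any of these 4 lists were called by limma, where 0.00765% of all genes were.

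**Figure D4:**
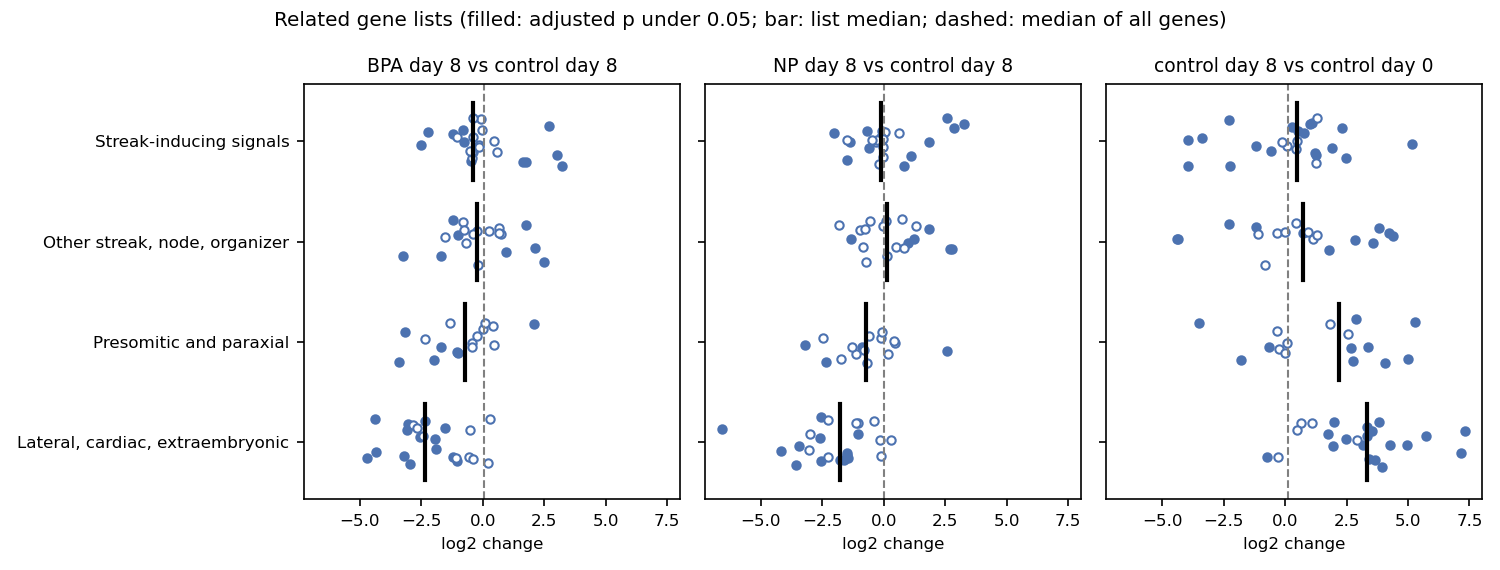
Log2 change (x axis) of each tested gene in 4 related gene lists (y axis), in BPA day 8 against control day 8, NP day 8 against control day 8 and control day 8 against control day 0. Filled points have a limma adjusted p under 0.05, bars are list medians and the dashed line is the median of all genes. The lateral, cardiac and extraembryonic genes have medians of -2.35 with BPA, -1.80 with NP and 3.32 in control day 8 against control day 0, while the streak-inducing signals lie on both sides of 0.

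The order of group means is given for each tested gene as a description. For all of them but Eomes it includes means near, at or under background. For Eomes the means ran NP, BPA, control day 8, control day 0 on the main probe set, and BPA, NP, control day 0, control day 8 on the other, and on neither did the BPA and NP groups differ beyond their interval. For Evx1 they ran control day 8, NP, BPA, control day 0, and only the steps to control day 0 passed the test. For Lhx1 on its main probe set they ran control day 8, NP, control day 0, BPA, for Mesp1 control day 8, BPA, NP, control day 0, for Tbx6 BPA, control day 0, NP, control day 8, and for Mesp2 control day 0, NP, BPA, control day 8. In these last 4 genes no neighbours in the order passed the test, so that their orders are not a result.

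Among tested genes, those whose signals ran most like Eomes over the 12 arrays were Kbtbd6 (Pearson r 0.949), Cmklr1 (0.938) and Mb (0.929). For Evx1 they were Bcl2l13 (0.972), Cadm1 (0.972) and Greb1l (0.970). Greb1l averaged 7.49 with BPA, 7.95 with NP, 8.86 at control day 8 and 5.47 at control day 0, the order found for Evx1. For Mesp2 they were Pyroxd2 (0.963), 1500002C15Rik (0.913) and Evc (0.912), and Pyroxd2 averaged 3.53 with BPA, 3.63 with NP, 1.10 at control day 8 and 3.71 at control day 0. For Mesp1 they were Ppard (0.892), Scarf1 (0.861) and Pou6f1 (0.843), for Tbx6 Kap (0.887), Ttll6 (0.874) and St3gal6 (0.847), and for Lhx1 Ano6 (0.813), Zfp715 (0.767) and Spcs3 (0.744). These are the top 3 among all other genes tested, over 12 arrays that share their 4 groups, and they describe likeness of pattern only. Some of the likeness rests on values under background. At control day 8 the means of Mesp2, Pyroxd2, 1500002C15Rik and Evc were all under it. So were those of Mb in both control groups (2.45 at day 8 and 1.29 at day 0) and of Scarf1 in all groups but BPA.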

How the data were processed

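RNA of 12 samples was hybridised to Affymetrix mouse arrays. The authors deposited 1 log2 signal for each probe set and array, made with MAS5, per the submitters' processing notes. Its version and scaling target are not given in the sources used here. The mean without the top and bottom 2% was 100.0 on each array. The table held 45101 probe sets, 64 of them controls, and no detection calls.

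Genes were named with the platform's gene table, in which 34958 probe sets had 1 gene, 932 had several and 9211 were not listed. A RefSeq gene (GRCm38.p6) was found by Entrez identifier for 34741 of the single-gene ones. Probe sets among the 60% with the highest mean over 12 arrays were kept, and each gene was represented by its highest. A mean per group was fitted over 12 arrays with limma 3.58.1 in R 4.3.3 (residual degrees of freedom 8, prior 1.57). All tests were 2-sided, with adjustment by Benjamini-Hochberg over 13066 genes, with a threshold of 0.05. In a further fit all 27022 single probe sets were tested. Where all arrays of the lower group were under background, a fold is counted from the background level, and where its mean was, values under background were set to it. Unless a floor is named, the adjusted p beside such a fold comes from the fit of the signals as deposited. Members and lists were chosen with earlier results of these data known. All 10 members were named, up to 2 genes per list, direction and comparison, and per member the 3 genes of highest correlation. The method was tested on simulated data. Precision is limited by the number of arrays. Alternatives were a pseudocount of 16, a floor at background, other filters, quantile normalization, median centring, the mean of a gene's probe sets, a trended robust prior, only the 2 groups compared, a replicate block, and each array left out. Figures used matplotlib 3.10.9 in Python 3.11.15.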

Additional observations from a re-analysis of the deposited data

How the results depend on the processing

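No called change of a member changed direction under any alternative. The member results were tried under 10 alternatives and with each of 12 arrays left out, and the single probe sets of Eomes were added after the data were seen. Of the recomputed changes of single members, 782 kept their side of the threshold, 36 were newly past it and 28 were no longer past it. Of the counts over members and over all genes, 193 moved by no more than 1.5 times and 71 by more.

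The number of the 6 members past the threshold, 0 with BPA and 0 with NP against control day 8, became 1 and 1 with a pseudocount of 16 (Evx1 with BPA, Eomes with NP) and 1 and 1 with the mean of a gene's probe sets (Eomes in both). It became 1 with BPA with values under background set to it, and 1 with BPA with only the 2 groups compared (Evx1 in both). A trended robust prior gave 1 with NP (Eomes). For control day 8 against control day 0 the number was 1, and became 2 (Mesp2 besides Evx1) with quantile normalization, median centring and a trended robust prior, and 0 with 40% of probe sets kept, where Evx1 was not tested. Against control day 0, the number with BPA, 1, became 2 with the mean of probe sets and with a trended robust prior, and 0 with values set to background. It stayed 1 with another gene called, Eomes, with a pseudocount or 40% of probe sets kept, and Lhx1 with only the 2 groups compared. With NP, 2, it became 1 with values set to background, no filter, 40% of probe sets kept, quantile normalization or median centring, and 0 with only the 2 groups compared, where in place of 1426001_at the probe set 1435172_at was the higher of the Eomes pair and Evx1 was not tested. The cause was not tested.

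With the replicate number as a block, the number at control day 8 against control day 0 became 2, with Mesp2 at a limma adjusted p of 0.0392, and the number of all genes past the threshold in NP against BPA became 0. The samples share only a number: deviations of same-numbered samples from their group means correlated at -0.0094 to 0.0811, and in the 6 comparisons 1 to 6 of the 6 samples correlated best with their own number. Beside these, the block moved no other of these counts by over 1.5 times.

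With 1 array left out, the number of members past the threshold ran from 1 to 2 for control day 8 against control day 0, from 0 to 1 for BPA and for NP against control day 8, and from 1 to 2 for BPA and for NP against control day 0. Without control day 8 replicate 1 or 3 the higher Eomes probe set was 1435172_at, since the means of the pair were nearly tied. The number of all genes ran from 1820 to 2934 for BPA against control day 8 (main 2906) and from 812 to 1870 for NP against control day 8 (main 1852), both lowest without control day 8 replicate 1. For NP against BPA (main 1) it ran from 0 to 3. That last count was 0 with a pseudocount, with values set to background, with 40% of probe sets kept, with median centring, with a trended robust prior and with only the 2 groups compared, 4 with no filter and 3 with the mean of probe sets. NP against control day 8 gave 1182 genes with no filter and 690 with only the 2 groups compared.

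Median centring moved the share of higher among called genes in NP against control day 8 to 64.8%, against 55.7% in the main fit, and in control day 8 against control day 0 to 49.9%, against 58.0%. The median change of all genes in control day 8 against control day 0 was 0.12, and 0.01 with either other scaling. Members near background are limited by their signal: Mixl1, Gsc and Cdx1 had no group mean above it, and a p that misses the threshold there says little about these genes.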
